A study of Mus musculus with 8 samples.

Results

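Albumin, alpha-fetoprotein, transthyretin and 7 other genes of liver-made plasma proteins were followed in RNA-seq counts of AML-12, a hepatocyte cell line from mouse liver. The 10 genes (Alb, Afp, Ttr, Ahsg, Rbp4, Ambp, Hp, Hpx, Apoh and Fetub) were taken by symbol, and all 10 had a row among the 21983 symbols of the count table. There were 4 libraries of cells labelled as overexpressing GM47544, which the series title names beside the ubiquitination of APOC3, and 4 control libraries of cells labelled WT with pLKO.1, a lentiviral vector. The titles of the overexpression libraries name no vector, so an effect of Gm47544 and one of a difference in vector cannot be told apart. All cells were AML-12, a line derived from a mouse with a transgene for human TGF-alpha, and both groups were grown in DMEM with fetal bovine serum and antibiotics. The sources used here do not give whether the cells were pools or clones, or whether the 4 libraries of each kind stem from different cultures. The p-values therefore refer to the spread among these libraries, and that spread may be technical. Gm47544 itself was not analysed here, so the group labels behind every difference below were not checked by its level.

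The liver makes most proteins of blood plasma, and hepatocytes secrete them with a signal peptide that is cut off on entry into the endoplasmic reticulum. Albumin is the main carrier of fatty acids and other small molecules in plasma, and alpha-fetoprotein is its fetal relative from a neighbouring gene; in mouse liver Afp is switched off after birth while Alb stays on. Transthyretin carries thyroid hormone and holds retinol-binding protein, the product of Rbp4, in the circulation, while haptoglobin and hemopexin bind free hemoglobin and free heme. The fetuins, encoded by Ahsg and Fetub, are inhibitors of the cystatin superfamily, Ambp encodes the precursor of alpha-1-microglobulin and bikunin, and Apoh encodes a phospholipid-binding glycoprotein.

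Sequences upstream of 3 of these genes are shown because Alb and Afp are neighbours whose counts went opposite ways, and because Hpx fell with Afp. Each is the 250 bases before a start listed for the gene in the RefSeq promoter table (GRCm38.p6), 5′ to 3′ on the gene's strand. These starts differ from the GENCODE gene positions given further below. By GENCODE, Alb starts at 90460897, Afp at 90490737 and Hpx, on the minus strand, at 105600137. The Alb and Afp stretches thus end short of the GENCODE start, and the Hpx stretch runs into the gene. The Alb stretch is chr5:90460620-90460869 on the plus strand, the Afp stretch chr5:90490464-90490713 on the plus strand and the Hpx stretch chr7:105600117-105600366 on the minus strand. Capitals mark matches to short letter motifs of liver and general factors.
Alb: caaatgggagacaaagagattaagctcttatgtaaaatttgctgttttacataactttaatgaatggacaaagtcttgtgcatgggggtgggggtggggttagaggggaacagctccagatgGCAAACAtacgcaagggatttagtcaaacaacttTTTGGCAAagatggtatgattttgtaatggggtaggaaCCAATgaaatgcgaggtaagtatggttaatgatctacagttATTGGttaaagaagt
Afp: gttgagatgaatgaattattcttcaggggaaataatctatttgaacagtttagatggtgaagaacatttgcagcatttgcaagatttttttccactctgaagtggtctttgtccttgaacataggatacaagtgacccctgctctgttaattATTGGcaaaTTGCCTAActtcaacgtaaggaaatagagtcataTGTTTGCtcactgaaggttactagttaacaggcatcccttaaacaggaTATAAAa
Hpx: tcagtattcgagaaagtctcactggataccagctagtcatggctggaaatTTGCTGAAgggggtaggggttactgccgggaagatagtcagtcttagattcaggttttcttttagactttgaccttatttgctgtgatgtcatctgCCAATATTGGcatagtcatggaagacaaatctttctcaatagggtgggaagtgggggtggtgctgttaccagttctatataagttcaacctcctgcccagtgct
The motif searched for C/EBP was TTGCNNAA. For HNF4 it was AAAGTCC. For FOXA factors both TGTTTAC and the variant TGTTTGC were used. The CCAAT box and the STAT motif TTCNNNGAA completed those searched on both strands. The TATA box, as TATAAA, was searched on the gene's strand. Of the 10 genes, 8 had an entry in the RefSeq promoter table, with 10 entries in all because Rbp4 and Fetub have more than 1 start. By GENCODE positions the entries of Ahsg, Ambp and Apoh lie inside the gene, as does an entry each of Rbp4 and Fetub. The C/EBP motif was in 5 of the 10 entries and in 9.56% of the 32851 promoters of the table. Counted from the RefSeq start, it began at -94 in Alb, -89 in Afp and -200 in Hpx. Of the others, the FOXA variant was in 5 entries (4.3%) and the CCAAT box in 6 (33.8%). The first FOXA motif was in 3 entries (3.17%) and the TATA box in 3 (7.59%). The HNF4 (3.58%) and STAT (7.02%) motifs were in 0. No matches overlapped each other in these entries. A match describes letters in this window and is no measure of binding.

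Library totals were between 11016907 and 17338310 counts in the overexpression group and between 12256376 and 18965662 in the control group. Of the 21983 symbols, 11520 had enough counts to be tested. Of those, 64.4% were called, meaning a Benjamini-Hochberg adjusted p under 0.05 by the quasi-likelihood test of edgeR, the test behind the adjusted p-values given below, while ranges over 17 processing alternatives also take in DESeq2 and limma-voom. Levels are CPM, counts put on a common scale of library size with trimmed-mean factors. Control library 3 lay nearer to the overexpression libraries than the other controls on the first principal component of all tested genes, at 22.2 against 50 to 60.7, with the overexpression libraries at -50.4 to -43.4. Hepatocyte markers outside the 10 genes were present in part: Hnf4a averaged 310 CPM in overexpression and 348 CPM in control libraries and Krt8 2210 and 2170 CPM, while Asgr1 had 0 overexpression counts and 1 control count, and Cyp2e1 also 0 and 1. Of the 9 hepatocyte markers 5 were tested, and Apob was called higher (log2 fold change 0.76) and Krt18 lower (log2 fold change -0.59). Summed, the 9 markers reached 3795 to 4228 CPM in overexpression and 3401 to 5429 CPM in control libraries. In these bulk libraries, fewer cells that express a gene and less RNA per cell cannot be told apart.

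Of the 10 plasma protein genes, 7 passed the count filter, and 6 of those 7 were called. Alb alone was higher in overexpression libraries, where 32.3% of all tested genes were called higher. Afp, Ttr, Rbp4, Hp and Hpx were lower, 5 of 7, where 32.1% of all tested genes were called lower. Ambp was not called, and Ahsg, Apoh and Fetub had too few counts to be tested. For all 6 called genes the 4 overexpression values lay wholly on one side of the 4 control values, which held for 28.5% of tested genes on the higher side and 27.5% on the lower. The changes were also large: all 5 genes that fell did so by at least 2-fold, as did 9.02% of tested genes, and Afp, Ttr and Hp by at least 4-fold, as did 1.12%. Part of this depended on the processing. With the trend of the log ratios on exon length removed, Rbp4 was 1.78-fold lower and Ttr 2.94-fold lower, under these marks, while Hpx was 2.03-fold lower.

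**Figure D1:**
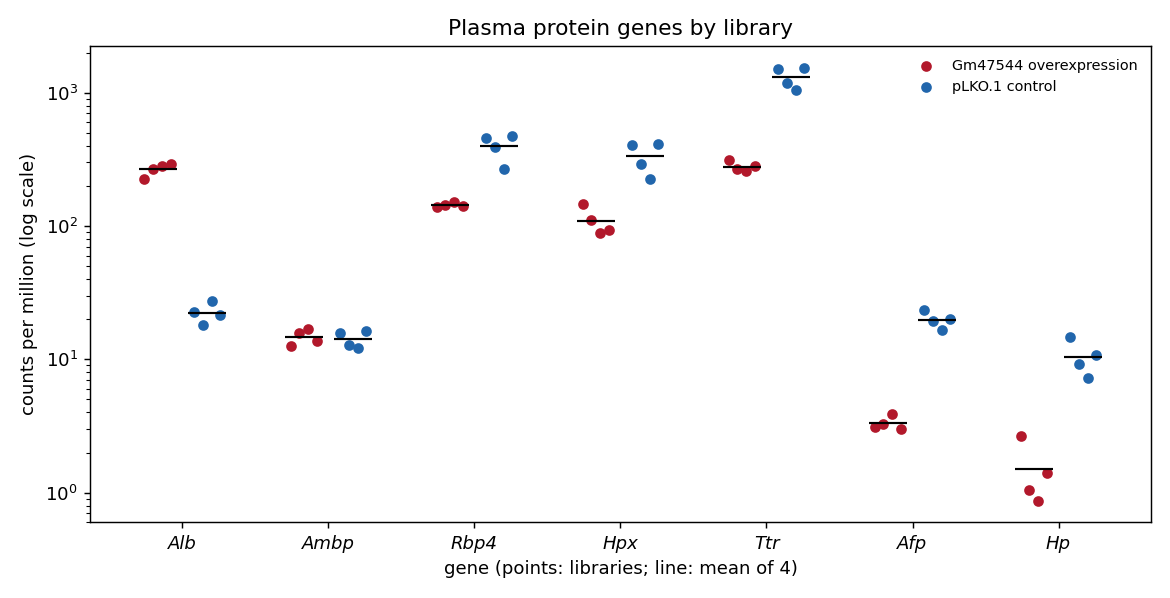
CPM of the 7 tested plasma protein genes in each of the 4 overexpression (red) and 4 control (blue) libraries, on a log axis, with a line at each group's mean. Alb is higher in every overexpression library, Ambp overlaps between the groups, and the other 5 genes are lower in every overexpression library.

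Albumin transcripts were 12-fold higher in the overexpression libraries. Alb (chr5:90460897-90476602, GRCm38, plus strand, 16 exon blocks) had 227, 267, 281 and 292 CPM in overexpression libraries 1 to 4, from 2652, 4845, 3221 and 3921 counts, against 22.5, 18, 27.3 and 21.5 CPM in control libraries 1 to 4, from 254, 335, 437 and 280 counts. The lowest overexpression library was far above the highest control. The means were 267 ± 28.2 CPM in overexpression and 22.3 ± 3.85 CPM in control libraries (SD, n = 4 each), a log2 fold change of 3.58 (SE 0.15, edgeR adjusted p = 7.78e-09). This was the 47th highest log2 fold change of the 11520 tested genes, of which 0.799% were called with at least an 8-fold increase. Per kilobase of exon, Alb was at rank 295 among 11491 tested genes with a known length in overexpression libraries and at rank 5136 in controls.

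Alpha-fetoprotein transcripts went the other way. Afp (chr5:90490737-90508907, plus strand) starts 14.1 kb after the end of Alb. It had 3.09, 3.25, 3.92 and 2.98 CPM in overexpression libraries 1 to 4 and 23.6, 19.3, 16.6 and 20.1 CPM in control libraries 1 to 4. The groups did not overlap, and the counts behind them were 36 to 59 per overexpression library and 262 to 359 per control library. The means of 3.31 ± 0.424 CPM in overexpression and 19.9 ± 2.91 CPM in control libraries (SD, n = 4 each) gave a 6-fold lower level (log2 fold change -2.58, SE 0.16, edgeR adjusted p = 1.87e-07). The ratio of Alb to Afp counts, which does not depend on how libraries are scaled, was 73.7, 82.1, 71.6 and 98 in overexpression libraries 1 to 4. In control libraries 1 to 4 it was 0.951, 0.933, 1.65 and 1.07, so that 3 of the 4 controls held the counts of both genes in nearly equal number and control library 3 had more Alb counts, 437 against 265.

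The next gene of the albumin family shared the direction of Alb. Afm, which encodes afamin, a vitamin E-binding relative of albumin, lies about 10 kb beyond Afp on the same strand (chr5:90518932-90553543). It had 90.1, 98.6, 91.9 and 108 CPM in overexpression libraries 1 to 4, against 12.6, 11.4, 14.9 and 8.91 CPM in control libraries 1 to 4 (log2 fold change 3.02, SE 0.16, edgeR adjusted p = 4.69e-08). Afp thus fell while the genes on both sides of it rose. Gc, the vitamin D-binding protein of the same family, lies at -1043 kb from the Alb start and averaged 55.2 ± 4.9 CPM in overexpression and 50.8 ± 9.82 CPM in control libraries (SD, n = 4 each; log2 fold change 0.12, edgeR adjusted p = 0.499). Gc passed the threshold in 1 of 17 processing alternatives, with the trend on gene length removed (log2 fold change 0.55, adjusted p = 0.0144). Within 1500 kb of the Alb start, a window chosen after these values were seen, 22 genes were tested, Alb, Afp and Afm among them, of which 12 were called higher and 5 lower, against 32.3% and 32.1% of all tested genes.

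**Figure D2:**
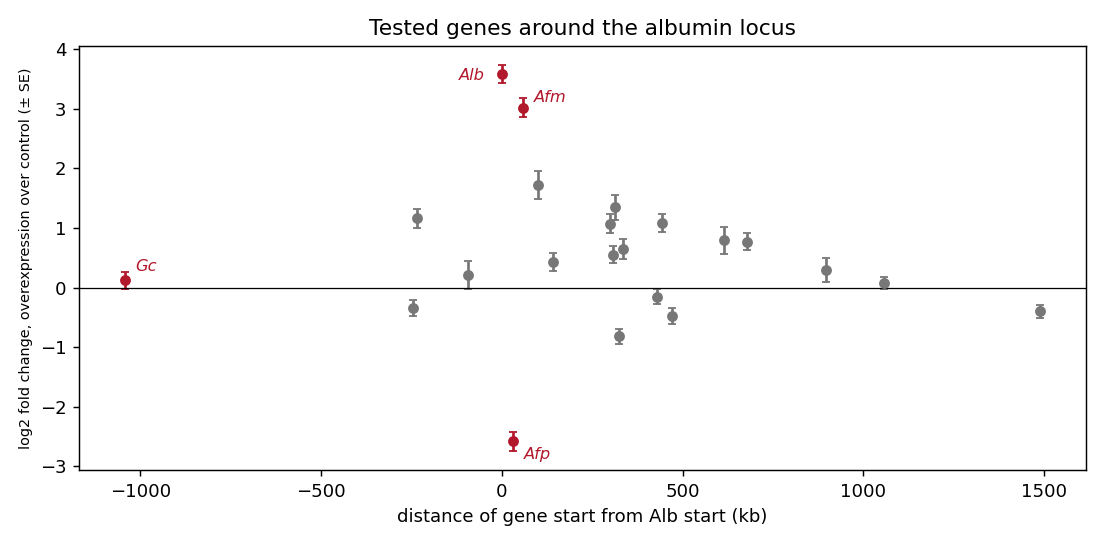
Log2 fold change (overexpression over control, ± SE) of the 22 tested genes whose start lies within 1500 kb of the Alb start, by distance in kb, with albumin family genes in red. Alb and Afm stand at 3.58 and 3.02 and Afp between them at -2.58, while the other genes of the window lie between -0.82 and 1.72.

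Transthyretin and its partner retinol-binding protein both fell, by 4.74-fold and 2.77-fold. Ttr (chr18:20665280-20674321, plus strand) had 312, 266, 257 and 280 CPM in overexpression libraries 1 to 4 and 1497, 1185, 1055 and 1546 CPM in control libraries 1 to 4. Every overexpression library was below every control, and control library 3 was the lowest of the controls. The means were 279 ± 24.2 CPM in overexpression and 1321 ± 239 CPM in control libraries (SD, n = 4 each), a 4.74-fold lower level (log2 fold change -2.25, SE 0.14, edgeR adjusted p = 1.84e-07). Per kilobase of exon, Ttr was still the highest of the 10 genes in both groups, at rank 114 of 11491 in overexpression and rank 29 in control libraries.

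Rbp4 (chr19:38116629-38125281, minus strand) had 139, 145, 151 and 141 CPM in overexpression libraries 1 to 4, against 458, 395, 268 and 475 CPM in control libraries 1 to 4. The overexpression libraries differed little among themselves, with a coefficient of variation of 3.64% against 23.5% in controls, where library 3 was again lowest. Rbp4 was 2.77-fold lower (log2 fold change -1.47, SE 0.16, edgeR adjusted p = 9.15e-06). Ttr counts exceeded Rbp4 counts 1.71 to 2.25 times in overexpression libraries and 3 to 3.94 times in control libraries, without overlap. Both genes have short transcripts, with 1186 and 1343 bases of exon. With the trend of the log ratios on exon length removed from each library, the log2 fold changes were -1.55 for Ttr and -0.83 for Rbp4, and both calls held (edgeR adjusted p = 1.35e-07 and 2.26e-05).

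**Figure D3:**
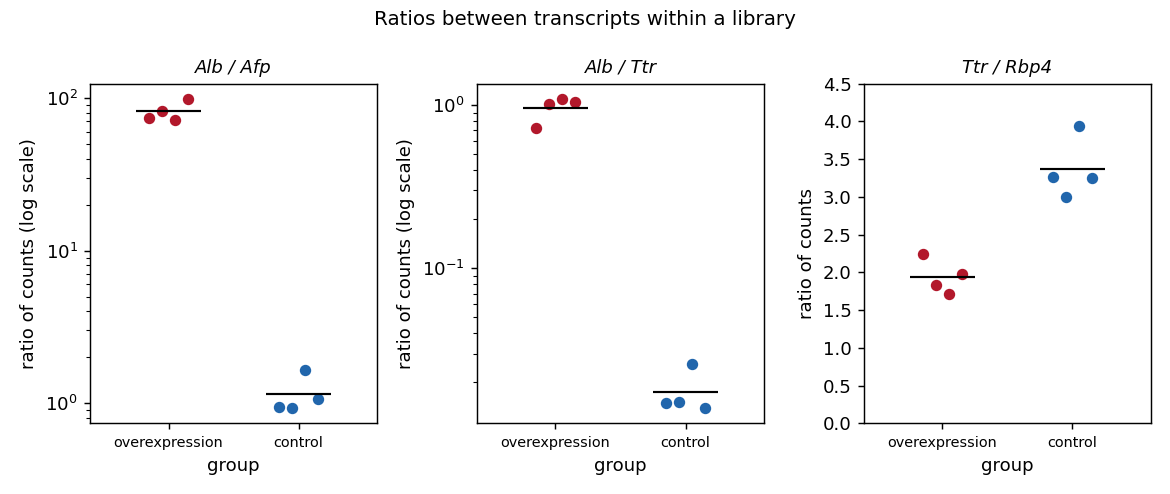
Ratios of raw counts between pairs of genes within each library, for the 4 overexpression (red) and 4 control (blue) libraries, with a line at each group's mean; Alb to Afp and Alb to Ttr are on log axes and Ttr to Rbp4 on a linear axis. Alb to Afp averaged 81.3 in overexpression and 1.15 in control libraries, Alb to Ttr 0.967 and 0.0175, and Ttr to Rbp4 1.94 and 3.36.

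The scavengers of hemoglobin and heme were both lower. Hp (chr8:109575128-109579172, minus strand), an acute-phase protein gene in mice, had 2.66, 1.05, 0.872 and 1.41 CPM in overexpression libraries 1 to 4, from only 31, 19, 10 and 19 counts. In control libraries 1 to 4 it had 14.7, 9.22, 7.25 and 10.8 CPM, from 166, 172, 116 and 141 counts. No overexpression value reached the lowest control, and the Hp level was 7.07-fold lower (log2 fold change -2.82, SE 0.31, edgeR adjusted p = 1.08e-05). Its replicate spread was the widest of the tested members, with coefficients of variation of 53.8% in overexpression and 30% in control libraries.

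Hpx (chr7:105591613-105600137, minus strand), whose upstream sequence is printed above, was far more abundant. It had 147, 112, 88.2 and 92.7 CPM in overexpression libraries 1 to 4 and 407, 293, 225 and 412 CPM in control libraries 1 to 4, a 3.04-fold lower level (log2 fold change -1.60, SE 0.21, edgeR adjusted p = 3.52e-05). In both genes overexpression library 1 was the highest of its group and control library 3 the lowest of its own, and the groups stayed apart. With the length trend removed Hpx was 2.03-fold lower (log2 fold change -1.02, edgeR adjusted p = 0.000155). The ratio of Hpx to Hp counts was 55.2 to 107 in overexpression libraries and 27.7 to 38 in control libraries.

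Ambp (chr4:63143275-63154799, minus strand) was the tested gene that was not called. It had 12.6, 15.9, 17 and 13.7 CPM in overexpression libraries 1 to 4 and 15.7, 12.8, 12.1 and 16.4 CPM in control libraries 1 to 4. The groups overlapped almost fully, with means of 14.8 ± 2.01 CPM in overexpression and 14.2 ± 2.08 CPM in control libraries (SD, n = 4 each; log2 fold change 0.06, SE 0.15, edgeR adjusted p = 0.731). This depended on the processing: with the trend on exon length removed the log2 fold change was 0.65, and with the trend on GC content removed it was 0.33, both called higher (edgeR adjusted p = 0.000727 and 0.0196, and 0.000727 to 0.969 over 17 alternatives).

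**Figure D4:**
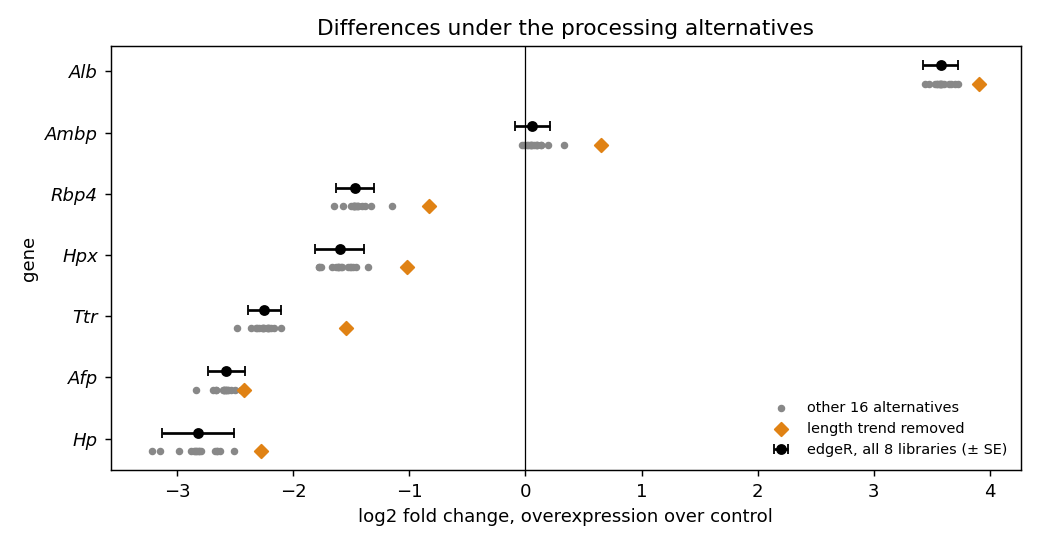
Log2 fold change (overexpression over control) of the 7 tested genes in the edgeR fit on all 8 libraries (black, ± SE), with the length trend removed (orange) and under the other 16 alternatives (grey). The 6 called genes stay on their side of 0 throughout, and Ambp moves to 0.65 with the length trend removed.

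Transcripts of both fetuins and of Apoh were too few to pass the count filter, and Ahsg was at or under the detection floor in both groups. Ahsg (chr16:22891277-22899449, plus strand), which encodes the calcification inhibitor fetuin-A, had 0 counts in every overexpression library and 3 counts in all controls, all of them in control library 1. Ahsg shares 62 exon bases with the antisense gene Gm30505, so these counts are uncertain where strand was not used. That floor was 3 counts over a group, or 0.0548 CPM in overexpression and 0.0509 CPM in controls. Fetub (chr16:22918334-22939778, plus strand), encoding fetuin-B, an inhibitor of the egg protease ovastacin, had 2, 0, 0 and 0 counts in overexpression libraries 1 to 4 and 1, 1, 2 and 4 in control libraries 1 to 4. At equal depth the overexpression-to-control ratio of Fetub counts was 0.269 (exact binomial 95% interval 0.0279 to 1.35, counting error only). Apoh (chr11:108343354-108414396, plus strand) had 1, 3, 5 and 4 counts in overexpression and 5, 8, 5 and 2 in control libraries, a ratio of 0.701 (0.32 to 1.48). No difference was detectable at this depth for Fetub or Apoh, also when tested without the filter (edgeR adjusted p = 0.233 and 0.513, with 48.6% of 16281 genes called). Apoh shares 30 exon bases with Prkca on the other strand, and the sources used here give no strand setting for the counting, so its few counts are uncertain.

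The fetuin genes are followed on chromosome 16 by other cystatin superfamily genes, which were also nearly silent. Hrg, encoding histidine-rich glycoprotein, had 0 counts in both groups, Kng2 had 1 overexpression count and 21 control counts, and Kng1 had 2 and 10. At equal depth the control-to-overexpression ratio of the kininogen gene Kng2 was 19.5 (exact binomial 95% interval 3.13 to 806, counting error only). Of the 9 listed cystatin superfamily genes outside the 10 members, only 3 were tested. Of these 0 were called higher and 2 lower, beside 32.3% higher and 32.1% lower among all tested genes. The median log2 fold change of the 3 was -1.16, against 0.000406 over all tested genes. The 2 were the cystatin genes Cst3 and Cstb (log2 fold changes -1.16 and -1.21), while Spp2 was not called (-0.41, edgeR adjusted p = 0.179). With the length trend removed Cst3 was at -0.49 and Cstb at -0.20, and the Cstb call was lost (edgeR adjusted p = 0.125, against values down to 1.59e-11 over the 17 alternatives).

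Within the plasma protein counts, the order of the genes differed between the groups. Per kilobase of exon, overexpression libraries had Ttr first at a mean of 235 CPM, then Alb at 114, Rbp4 at 107, Hpx at 73.3, Ambp at 10.5, Afp at 0.983 and Hp at 0.933. Alb and Rbp4 overlapped in their libraries, as did Afp and Hp, and the other neighbours in this order did not. Control libraries had Ttr first at 1114 CPM per kilobase, then Rbp4 at 297, Hpx at 223, Ambp at 10.1, Alb at 9.53, Hp at 6.54 and Afp at 5.9, and from Rbp4 to Afp every neighbouring pair overlapped except Hpx and Ambp. Apoh, Fetub and Ahsg came last in both groups, at most 0.21 CPM per kilobase on average.

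The 10 genes together took 0.0832% to 0.0885% of all counts in overexpression libraries and 0.163% to 0.228% in control libraries. Alb made up 27% to 35.4% of these counts in overexpression libraries and 0.859% to 1.69% in controls. The Ttr part was 32.2% to 37% in overexpression libraries and 61.3% to 65.4% in controls. The Rbp4 part overlapped between the groups, at 16.4% to 18.9% in overexpression and 16.6% to 20.4% in control libraries.

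**Figure D5:**
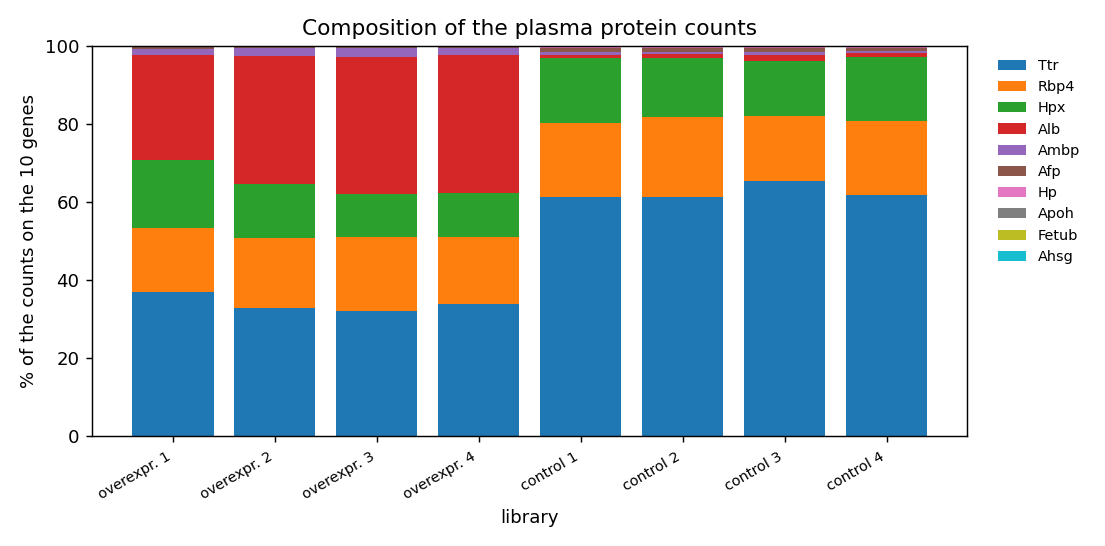
Share of each gene in the counts on the 10 plasma protein genes, in percent, for overexpression libraries 1 to 4 and control libraries 1 to 4 (stacked bars). Alb fills 27% to 35.4% of each overexpression bar and 0.859% to 1.69% of each control bar, and Ttr takes the largest part of the control bars.

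Control library 3 was the highest control for Alb, at 27.3 CPM, and the lowest for Afp, Ttr, Rbp4, Hp, Hpx and Ambp. Without it the log2 fold changes were 3.67 for Alb, -2.69 for Afp, -2.37 for Ttr, -1.65 for Rbp4, -2.99 for Hp and -1.78 for Hpx, each somewhat farther from 0 than with all 8 libraries. Ambp was at -0.03 without it and not called.

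The genes whose level most resembled that of Alb over the 8 libraries were Kcnh7, Magi1 and Adamts1, with Pearson r of 0.9986, 0.9978 and 0.9976 on log2(CPM + 1). For Ttr they were Pdrg1, Cyr61 and Tmem97, with r of 0.9984, 0.9975 and 0.9975. The step between the groups enters each r: 935 of 10923 genes compared had an r above 0.95 with Alb and 1235 with Ttr.

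Of the 16 nearest tested neighbours of the members or member pairs, 8 were called higher and 4 lower, against 32.3% and 32.1% of all tested genes. Ambp, which was not called, lay between Zfp618 and Kif12, which rose with log2 fold changes of 1.16 (0.75 with the length trend removed) and 1.42 (edgeR adjusted p = 5.56e-06 and 3.54e-06). Hp, which fell, lay between Txnl4b and Dhodh, a pyrimidine synthesis gene, which fell with log2 fold changes of -0.59 and -0.94. The Txnl4b call was lost with the length trend removed (log2 fold change -0.15, edgeR adjusted p = 0.369, against values down to 0.000111 over the 17 alternatives). Ttr, which also fell, lay between Dsg2 and B4galt6, which rose with log2 fold changes of 1.32 and 0.82. Rbp4 lay between Ffar4 and Fra10ac1, neither of them called. Hpx lay between Apbb1, called lower (log2 fold change -0.38), and Trim3, which was not called.

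Of all tested genes 32.3% were called higher and 32.1% lower, with a median log2 fold change of 0.000406, and the counts of the lists that follow stand beside these shares. Receptors and handlers of these proteins went both ways, 4 of 8 tested members of the list being higher and 3 lower (median log2 fold change 0.38). Fcgrt encodes the receptor that returns albumin to the circulation, and it rose to 13.8 ± 1.62 CPM in overexpression libraries, against 3.91 ± 1.01 CPM in controls (SD, n = 4 each; log2 fold change 1.82, SE 0.18, edgeR adjusted p = 5.52e-06). Cubn, an endocytic receptor that binds albumin and Apoa1, rose with a log2 fold change of 1.90, or 1.22 with the length trend removed. Picked out after their values were seen, B2m, the light chain of the Fcgrt receptor, and Lrp1, a receptor for hemopexin bound to heme, fell by 0.88 and 0.86 on the log2 scale. With the length trend removed B2m was at -0.06 and no longer called (edgeR adjusted p = 0.761, against values down to 5.62e-09 over the 17 alternatives), while Lrp1 was at -1.68 there and at -0.55 with the GC trend removed.

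On the retinol pathway and among lipocalin relatives of Rbp4, 1 of 7 tested genes rose and 4 fell (median log2 fold change -0.45). Stra6, the cell-surface receptor for retinol-binding protein, rose with a log2 fold change of 1.33 (SE 0.14, edgeR adjusted p = 6.2e-06), opposite to its ligand Rbp4. Ptgds, a lipocalin, fell with a log2 fold change of -1.24, or -0.71 with the length trend removed. Without overexpression library 1 the list had 2 genes higher, and with the length trend removed 3. Apom and the orosomucoid genes Orm1, Orm2 and Orm3 were too low to be tested, with at most 20 counts in a group.

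Other liver plasma proteins were split, with 8 of 18 tested genes higher and 6 lower (median log2 fold change 0.29). The fibrinogen chain genes Fga and Fgb were low and rose with log2 fold changes of 3.17 and 2.89, and had 168 and 187 counts over the overexpression group and 19 and 27 over the control group. Agt, angiotensinogen, fell with a log2 fold change of -2.24. The number of genes called higher in this list was 4 without overexpression library 3 or 4, and 5 without control library 2 or with a stricter count filter, which also left 3 lower.

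Known regulators of these promoters included 5 of 23 tested genes higher and 9 lower (median log2 fold change -0.15). Zbtb20 and Zhx2 are both known as repressors of Afp in mouse liver after birth. Zbtb20 rose with a log2 fold change of 1.39, or 0.36 with the length trend removed, and Zhx2 fell by 0.78. Nr5a2, a nuclear receptor of liver genes, rose with a log2 fold change of 2.17. Hnf4a, a transcription factor of many hepatocyte genes, was not called (log2 fold change -0.17, edgeR adjusted p = 0.15), although without control library 3 it was called lower, at -0.19 (edgeR adjusted p = 0.0327, and 0.0327 to 0.733 over 17 alternatives). Of the secretion machinery, which carries these proteins into and out of the endoplasmic reticulum, 12 of 20 tested genes fell and 2 rose (median log2 fold change -0.44), beside 32.1% lower and 32.3% higher among all tested genes. Sec61g, a subunit of the translocation channel, Sec11c, of the signal peptidase, and Ssr4, of the translocon-associated complex, had log2 fold changes of -1.58, -1.36 and -1.09. The number of higher regulators was 8 with library totals alone and 9 with the GC trend removed, the number of lower ones was 5 with library totals alone, and the secretion list had 4 genes higher without control library 3 and 1 without control library 1.

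The summed levels of cholangiocyte, stellate, endothelial and macrophage markers differed between the groups without overlap, and their part in these results was not tested. Each of these differences came mostly from 1 gene. Summed over 6 cholangiocyte and progenitor markers, the level was 4475 to 5076 CPM in overexpression and 2788 to 4139 CPM in control libraries, with Epcam at 0 and 1 counts. Of 4 tested, Spp1 was higher and Krt19 and Sox9 lower. Spp1 averaged 2731 CPM in overexpression and 943 CPM in control libraries. Krt19 went the other way, at 1702 and 2253 CPM, as did Krt7 at 292 and 327 CPM, which was not called. The 6 stellate cell and fibroblast markers summed to 9.86 to 17.4 CPM in overexpression and 3.56 to 5.47 CPM in control libraries, with Col1a2 and Lrat at 0 in both. Both tested members were higher, and Des made up most of the sum, at means of 11.3 and 3.95 CPM. The 4 endothelial markers summed to 1.29 to 2.18 CPM in overexpression and 0.0625 to 0.536 CPM in control libraries, with Kdr at 0 and 1 counts. The 1 tested, Cdh5, was higher, at means of 1.29 and 0.117 CPM. The 5 macrophage and leukocyte markers summed to 9.94 to 13.2 CPM in overexpression and 26.7 to 32.6 CPM in control libraries, with Adgre1 and Clec4f at 0 in both. Of 2 tested, 1 was lower, Csf1r, which made up most of the sum at means of 10.2 and 27.1 CPM. The 4 erythroid markers summed to at most 0.0745 CPM in overexpression and 0.531 CPM in control libraries.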

How the data were processed

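RNA was extracted with Trizol and libraries were made with an NEBNext Ultra kit, per the labels' protocols. The authors deposited raw counts per gene symbol for 8 libraries. The submitters' processing notes name FastQC, STAR, HTSeq and mm10; the sources used here give no versions, annotation or strand setting. The sample titles gave groups and replicate numbers.

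The counts were analysed with edgeR 4.0.16 in R 4.3.3: filterByExpr (minimum count 10) kept 11520 genes, trimmed-mean factors scaled the libraries, and a two-sided quasi-likelihood test set overexpression against control, adjusted by Benjamini-Hochberg over all tested genes and called at 0.05. Standard errors were derived from the log2 fold change and its F statistic. Positions and exon lengths are from GENCODE M21 on GRCm38, the assembly named mm10; 21926 of 21983 symbols matched. Upstream sequences are from RefSeq (GRCm38.p6). The test was tried on simulated counts in which few genes differed between the groups. That trial gives no measure of error where 64.4% of tested genes are called, as here. Alternatives were DESeq2 1.42.0, limma-voom 3.58.1, other scalings and filters, omission of each library in turn, a replicate block, and removal of length or GC trends (lowess, span 0.3). Figures used matplotlib 3.10.9.

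The members and lists were chosen with earlier results of these data known. Beyond the members, text names follow a rule: at most 3 called genes with the smallest p of each list, nearest tested neighbours and the 3 most similar genes of Alb and Ttr; others are marked as picked out later or are listed for their role or absence. Some genes that the rule takes in are not reported here. No pair of libraries in a group agreed within counting noise (chi-square per gene 2.41 to 102). Low-count intervals are exact binomial at 95%. Such intervals and floors account for counting error alone.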

Additional observations from a re-analysis of the deposited data

Results flagged for a closer look

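The ratio of Alb to Ttr counts in control library 3 was 0.0259, while the other 3 control libraries lay between 0.0139 and 0.0152, so this library stood apart from the rest of its group. In overexpression libraries the ratio was 0.729 to 1.09. This was 1 of 25 sets of 4 values examined in this way, and chance flags about 1 in 20.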

How the results depend on the processing

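All 6 called plasma protein genes kept their direction and their call in all 17 alternatives. The log2 fold change ran from 3.44 to 3.91 for Alb, from -2.84 to -2.43 for Afp, from -2.49 to -1.55 for Ttr, from -1.65 to -0.83 for Rbp4, from -3.22 to -2.28 for Hp and from -1.78 to -1.02 for Hpx. The count of members called higher was 2 with the length trend removed and 2 with the GC trend removed, against 1 otherwise, because Ambp was then called. Scaling by library totals alone put the median over all tested genes at 0.128 on the log2 scale, and 58.4% of calls were then higher, against 50.2%. Leaving out a library left 3299 to 4498 genes called higher and 3302 to 4503 lower, against 3720 and 3697 with all 8. The titles share replicate numbers, but deviations of same-numbered libraries correlated at only -0.119 to 0.0227 and no library correlated best with its own number. No shared effect of the numbers was thus visible, which cannot exclude that same-numbered samples were handled together. With the replicate block 3682 genes were higher and 3447 lower, and members stood at 1 higher and 5 lower. Fetub, with 10 counts in all, moved from -1.70 to -4.10 without overexpression library 1 and to -1.09 without control library 4, and was not called in any of 15 alternatives run without the filter. Depth limits Ahsg, Fetub and Apoh, for which only large differences could have been seen.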
